A study of Mus musculus with 48 samples.

Results

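The transcripts of 10 heat shock and chaperone genes were followed in mouse cortex, out of 48526 genes counted in the series. The genes were Hspa1a, Hspa1b, Hspa8, Hsp90aa1, Hsp90ab1, Dnajb1, Hspb1, Hspa5, Hsph1 and Hspd1. They were taken by name, but chosen with earlier results of these data known. The Ensembl identifiers of the count table were matched to mouse GENCODE symbols, and all 10 were found. The mice were 12 wild-type males of strain C57BL/6JRj, with 4 mice at each age: 3 weeks (mice 187 to 190), 5 months (191 to 194) and 18 months (195 to 198). The middle age is 6 months in the age label and 5 months in the protocol, which is the name used here, and the protocol gives the oldest group as 18 or 19 months. Each mouse gave 4 libraries. Total homogenate (TH) and synaptosomes (SYN, called SG in the sample titles), which are pinched-off synaptic endings collected between the 1 M and 1.18 M layers of a sucrose gradient, were each sequenced as input RNA and as the pellet (SC) that sedimented through a 34% sucrose cushion. The pellet holds ribosomes and the RNA bound to them, and cycloheximide, which stalls ribosomes, was in the lysis buffer and the cushion of the SC samples. The groups therefore differed in age, in compartment and in cushion step, with no drug or allele between them. A pellet does not show that a ribosome was translating, and the tissue was bulk cortex with all of its cell types.

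Chaperones bind unfolded or partly folded proteins and help them fold, refold or be degraded. In unstressed cells most of the HSP70 and HSP90 protein is made from constitutive genes, while heat shock factor 1 switches on the stress-inducible ones after heat or other proteotoxic stress by binding repeated GAA units, the heat shock elements. The endoplasmic reticulum (ER) has its own chaperones, which are controlled by the unfolded protein response. Neurons are known for a high demand on these proteins, because vesicle cycling and the export of receptors both need them, and for a weak heat shock response.

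The HSP70 genes were Hspa8, the constitutive cytosolic HSP70 that also uncoats clathrin vesicles, on chr9:40800984-40810087 (GRCm38, plus strand), and the inducible single-exon pair Hspa1a, on chr17:34969190-34972156, and Hspa1b, on chr17:34956436-34959238, both on the minus strand. Hspa5, on chr2:34771970-34777547 (plus), encodes BiP, the HSP70 of the ER. Hspd1, on chr1:55077835-55088243 (minus), encodes the mitochondrial chaperonin HSP60. The helpers of HSP70 were Dnajb1, a J-domain protein that stimulates its ATPase, on chr8:83608193-83612653 (plus), and Hsph1, the HSP110 nucleotide exchange factor, on chr5:149614287-149636376 (minus). The cytosolic HSP90 genes were Hsp90aa1, on chr12:110690605-110702728 (minus), and Hsp90ab1, on chr17:45567775-45573271 (minus). Hspb1, on chr5:135887919-135889563 (plus), encodes the small heat shock protein HSP25.

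Several of these genes have near copies, so their counts are uncertain to that degree. Of the stretches of 1 read length in the transcripts of Hspa1a, 56.3% also occur in another gene, and 46.9% occur in Hspa1b. The share was 49.7% for Hspa1b, 43.9% for Hspb1 (pseudogene Hsp25-ps1), 37.8% for Hsp90aa1, 28.4% for Hspa8 and 23.6% for Hspd1, in these last 3 mostly with processed pseudogenes. It was 0% for Hsp90ab1, Dnajb1, Hspa5 and Hsph1. Hspa1a also overlaps Gm20481 on the other strand over 564 bases, Hspd1 overlaps Hspe1 there over 112, and the counting did not use strand.

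The promoters are shown for the heat shock elements and ER stress elements that their letters may hold, which not every gene of the set had. RefSeq windows of 250 bases before the start (GRCm38.p6) were at hand for 7 of the 10 genes, all but Hspa8, Hsp90aa1 and Hsp90ab1. Both strands were searched for a facing pair of heat shock units, GAANNTTC or TTCNNGAA, which can overlap in a longer array, and for the ER stress element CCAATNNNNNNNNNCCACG. The windows of Hspa1a (chr17:34972157-34972406), Hspa1b (chr17:34959239-34959488) and Hspb1 (chr5:135887669-135887918) are printed in the direction of the gene, with the heat shock pairs in capitals.
Hspa1a: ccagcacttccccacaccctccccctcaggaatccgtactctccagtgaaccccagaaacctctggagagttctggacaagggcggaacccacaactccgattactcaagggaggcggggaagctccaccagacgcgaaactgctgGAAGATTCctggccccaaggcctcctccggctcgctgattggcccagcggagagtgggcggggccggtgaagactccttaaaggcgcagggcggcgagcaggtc
Hspa1b: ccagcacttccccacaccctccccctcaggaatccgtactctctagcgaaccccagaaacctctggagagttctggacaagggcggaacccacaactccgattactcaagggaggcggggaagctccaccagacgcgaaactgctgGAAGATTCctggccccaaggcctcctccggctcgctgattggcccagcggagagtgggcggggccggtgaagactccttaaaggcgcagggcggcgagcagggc
Hspb1: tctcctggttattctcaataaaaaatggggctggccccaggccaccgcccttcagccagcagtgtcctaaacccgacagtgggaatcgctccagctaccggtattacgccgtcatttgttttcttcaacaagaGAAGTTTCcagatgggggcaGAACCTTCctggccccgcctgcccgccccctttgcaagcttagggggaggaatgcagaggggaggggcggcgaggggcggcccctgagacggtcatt
The windows of the inducible pair were identical at 247 of 250 bases, with the substitutions C44T, T47C and T249G counted from the 5′ end of the window (Hspa1a first). Both held GAAGATTC at 104 bases before the start, and Hspb1 held GAAGTTTC at 117 and GAACCTTC at 97.

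The other matches were short. Hsph1 held TTCTCGAA at 33 bases before its start, and the second listed start of Hspd1 was preceded by 3 overlapping pairs in the run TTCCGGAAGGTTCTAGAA. Hspa5 had no heat shock pair and held the ER stress element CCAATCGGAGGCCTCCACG at 65 bases before its start. Neither motif was in the Dnajb1 windows. Heat shock pairs were thus in 5 of 7 of these genes, against 14.5% of 27025 genes with a window, and the ER stress element was in 1 of 7, against 0.13%. Among 19 other ER folding genes with a window, 5 held the ER stress element (Calr, Canx, Pdia6, Creld2 and Syvn1). A match is a description of these letters and not a binding site.

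Library depth ranged from 9699909 to 13225435 counts in TH input, 3058278 to 15423546 in TH pellets, 1780267 to 7879536 in SYN input and 5341263 to 18590040 in SYN pellets. Levels are given as CPM, read counts scaled to the size of the library. The summed markers of astrocytes were higher in SYN than in TH (13400 to 19300 against 3710 to 7110 CPM), with 8 of 8 called higher at each age also on library size. The neuron markers summed to 10800 to 13600 in SYN and 4430 to 9920 in TH, but gene by gene 2 to 4 of 8 were higher and 1 to 5 lower, and on library size 5 to 6 were lower. Microglia markers summed to 347 to 1190 in SYN and 173 to 367 in TH, and oligodendrocyte markers to 2910 to 11400 and 1960 to 6560. Endothelial and vascular markers (27.8 to 77.6 against 98.7 to 430) and nuclear RNAs (850 to 4280 against 5320 to 19400) were lower in SYN, as were 5 of 5 erythrocyte markers at each age. No neuron, astrocyte or endothelial marker was at 0 throughout a TH group. Acta2, a smooth muscle actin, was at 0 in the SYN input libraries of 5 months. In bulk samples, fewer cells of a type and less RNA per cell cannot be told apart. The 72 pairs of replicate libraries differed by 1.98 to 32.2 times counting error, so none were duplicates. CPM values are scaled by trimmed means (TMM) over all 48 libraries.

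Hsp90ab1 and Hspa8 had the highest mean levels in every fraction and age. Levels between genes are given as CPM per kilobase of exon (mean ± SD, n = 4). In TH pellets at 5 months Hsp90ab1 stood at 475 ± 57.6 and Hspa8 at 333 ± 59.2, followed by Hsp90aa1 at 137 ± 25.1 and Hspa5 at 67.1 ± 16.9. Hspd1 (41.8 ± 11.2) and Hsph1 (40.9 ± 8.38) did not differ beyond their spread. Hspd1 lay below Hspa5 by more than either SD, although the mean ± SD intervals overlapped. Dnajb1 followed at 18.9 ± 1.7, the inducible genes Hspa1a and Hspa1b stood at 9.23 ± 2.57 and 9.04 ± 2.27, within their spread, and Hspb1 was lowest at 3.89 ± 0.579.

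In SYN pellets at 5 months the order changed at Hspa5. BiP transcript reached 230 ± 56.4 CPM per kilobase there, near Hspa8 at 256 ± 86.2, a gap smaller than their SDs, and above Hsp90aa1 at 97.4 ± 24.2. Hsp90ab1 was again highest at 418 ± 79. Hspd1 stood at 39.5 ± 10.6, Hsph1 at 22.6 ± 6.47, Dnajb1 at 9.66 ± 0.768, Hspa1b at 6.99 ± 0.922 and Hspa1a at 6.31 ± 1.04, these last 2 within their spread. Hspb1 was at 0.943 ± 0.215.

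**Figure D1:**
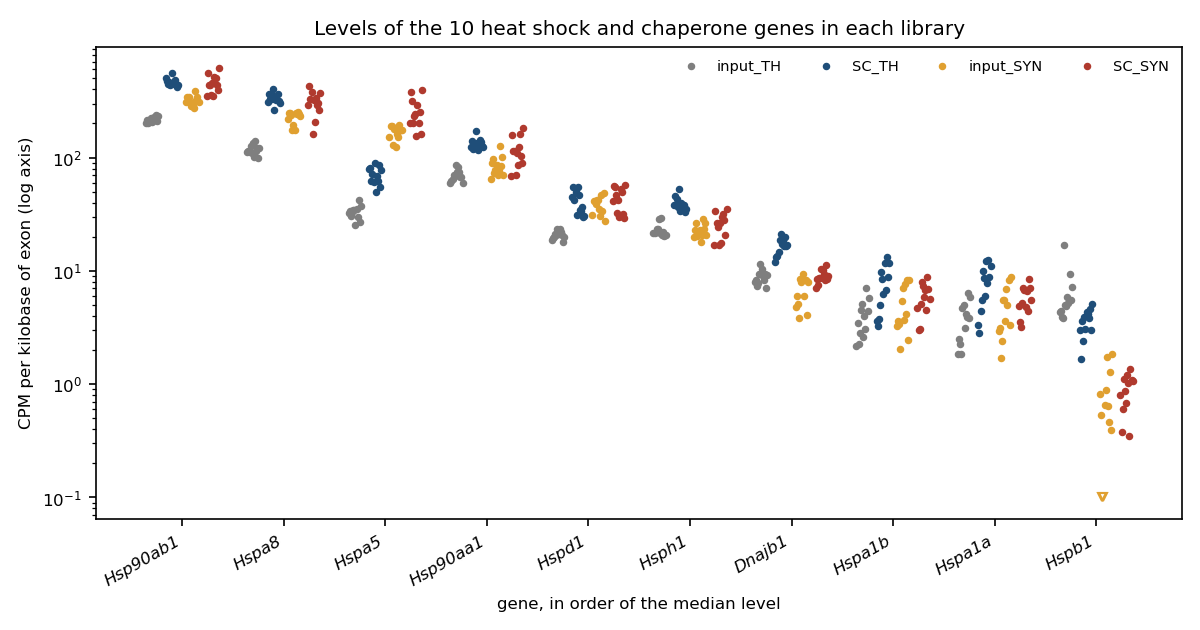
Level of each gene in CPM per kilobase of exon (log axis), with 1 point per library, coloured by fraction, the 12 mice of all ages together, and an open triangle near the bottom edge for libraries at 0. Hsp90ab1 and Hspa8 lie at the left with the highest levels, Hspa5 lies higher in both SYN fractions than in both TH fractions, and Hspb1 lies lowest in SYN.

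The first question was which of these transcripts change between 3 weeks and 5 months and between 5 and 18 months, within each fraction. Between 3 weeks and 5 months the inducible HSP70 genes and their partner Dnajb1 rose in TH pellets, while Hspa8, the HSP90 genes, Hspa5, Hsph1, Hspd1 and Hspb1 passed no test there. In these and all later comparisons a gene was called at an adjusted p (edgeR quasi-likelihood, Benjamini-Hochberg over all genes tested) under 0.05. Fold changes are given on the log2 scale with their standard error (SE).

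Hspa1a was at 9.83, 8.40, 13.0 and 16.5 CPM in the TH pellets of the 4 mice of 3 weeks and at 29.7, 25.7, 18.0 and 36.2 in those of 5 months. Hspa1b was at 10.2, 9.17, 10.5 and 14.0 and then at 27.5, 23.7, 17.6 and 32.6. Mouse 193 was the lowest of the 5-month mice for both genes, and still above every mouse of 3 weeks. The rise was 1.23 for Hspa1a (SE 0.226, adjusted p = 0.0018) and 1.25 for Hspa1b (SE 0.23, adjusted p = 0.00184). Counted together, because they share reads, the pair gave the same direction and call.

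Dnajb1 was at 38.6, 42.2, 43.7 and 46.8 CPM in TH pellets at 3 weeks and at 59.6, 68.0, 54.9 and 60.2 at 5 months. The groups did not overlap, and the rise was 0.51 (SE 0.093, adjusted p = 0.0018). These 3 of 10 genes, all higher, stood against 17.9% of all genes called in this comparison. Their calls were kept under every alternative of the processing and with each of the mice left out. The median over the 10 genes was 0.049, against 0.00681 over all genes tested. Hspd1 differed by -0.21 (adjusted p = 0.318) and by -0.37 without mouse 192 (adjusted p = 0.0355).

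In TH input the same step gave 3 called genes of 10, all higher, against 11.8% of all genes, and the median over the 10 genes was 0.248, against 0.0115 over all genes tested. Hspa1a was at 5.43, 7.41, 6.65 and 5.50 CPM at 3 weeks and at 13.9, 14.7, 9.23 and 12.5 at 5 months, with no overlap. It rose by 1.00 (SE 0.186, adjusted p = 0.00182), and its call was kept in all 17 alternatives, with values of 0.79 to 1.13. Hspa1b differed by 0.59 (adjusted p = 0.131). Dnajb1 was at 25.4, 26.8, 23.4 and 25.0 CPM and then at 30.1, 36.8, 33.3 and 29.2, again with no overlap, and rose by 0.36 (SE 0.09, adjusted p = 0.015). Hsp90aa1, the inducible HSP90, was at 233, 246, 253 and 276 and then at 270, 338, 293 and 327, where 1 mouse of 5 months lay below the highest of 3 weeks, and rose by 0.28 (SE 0.076, adjusted p = 0.0233).

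The calls of Dnajb1 and Hsp90aa1 in TH input were less stable. Both were lost with all 48 libraries in one fit (Dnajb1 0.36, adjusted p = 0.0781, and Hsp90aa1 0.285, 0.55) and without single mice. Dnajb1 was at 0.32 without mouse 189 (adjusted p = 0.0607) and at 0.29 without mouse 192 (0.0606). Hsp90aa1 was at 0.24 without mouse 187 (adjusted p = 0.0779), 0.27 without 188 (0.064), 0.28 without 189 (0.0636), 0.23 without 192 (0.0859) and 0.24 without 194 (0.0825). The count of called genes was 1 without mouse 189 and 6 without mouse 193, where Hspa1b (0.76, adjusted p = 0.0468), Hspb1 (1.16, 0.0384) and Hsph1 (0.29, 0.0165) were added. Hsph1 was also called without mouse 191 (0.26, 0.0427) and Hspb1 without mouse 192 (1.13, 0.0465). Scaled by library size alone, 59.2% of the called genes of the transcriptome were higher at 5 months, against 40.3% with TMM.

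Hspb1 in TH input had 1 library apart from the rest. It was at 4.52, 4.56, 4.07 and 3.93 CPM at 3 weeks and at 17.5, 5.20, 5.01 and 6.08 at 5 months, with mouse 191 standing apart. The ages did not overlap, and the difference was 0.97 (SE 0.341, adjusted p = 0.077). It was called with no filter on low counts (0.96, adjusted p = 0.00351), with the GC and length trend removed (1.01, 0.0338) and with all 48 libraries in one fit (0.98, 0.0206). In the same library the summed endothelial and vascular markers stood at 430 CPM, against 187 to 256 in the other TH input libraries, and their part in the Hspb1 value was not tested.

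In SYN, 1 gene was called in each fraction. In SYN input Dnajb1 was at 15.4, 19.2, 16.4 and 12.2 CPM at 3 weeks and at 27.3, 25.3, 26.9 and 30.1 at 5 months, with no overlap, and rose by 0.74 (SE 0.196, adjusted p = 0.0479). It was the only called gene of 9 tested, against 3.22% of all genes, and leaving out any 1 of the 8 mice, 187 to 194, took the adjusted p to between 0.0704 (without mouse 188) and 0.125 (without mouse 194), with values of 0.67 (without mouse 190) to 0.85 (without mouse 188). Hspa1a (1.01, adjusted p = 0.078) and Hspa1b (0.88, adjusted p = 0.189) also had no overlap between the ages, at 5.06 to 9.34 and then 10.8 to 20.7 CPM, and at 5.78 to 10.2 and then 10.3 to 21.4. Hspa1a was called by DESeq2 (1.03, adjusted p = 0.0339), with no filter (0.99, 0.00685), with only the 2 ages (1.01, 0.0161) and with the GC and length trend removed (0.90, 0.034), and Hspa1b with no filter (0.86, 0.0305) and with only the 2 ages (0.88, 0.0385). Hsp90ab1 also had no overlap, in the other direction, at 929 to 1035 and then 819 to 902 CPM (-0.21, adjusted p = 0.267). Hspa8 (-0.30, adjusted p = 0.134) was called only without mouse 194 (-0.41, adjusted p = 0.0418).

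In SYN pellets Hspa1b was at 13.1, 8.44, 8.58 and 14.4 CPM at 3 weeks and at 22.5, 20.4, 16.4 and 19.0 at 5 months. The ages did not overlap, and the rise was 0.76 (SE 0.223, adjusted p = 0.0483). It was the 1 called gene of 9, against 8.05% of all genes. The call was lost without mouse 188 (0.64, adjusted p = 0.138), 189 (0.65, 0.141), 191 (0.69, 0.116), 192 (0.74, 0.0988), 193 (0.85, 0.0649) or 194 (0.79, 0.0791), on library size alone (0.71, 0.0631) and with the GC and length trend removed (0.545, 0.0568). With library size, 39.2% of all called genes were higher, against 50% with TMM. Hspa1a (0.54, adjusted p = 0.132) and Dnajb1 (0.24, adjusted p = 0.258) passed no test in this fraction. Hspb1 had too few counts to be tested within SYN (0 to 21 per library).

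**Figure D2:**
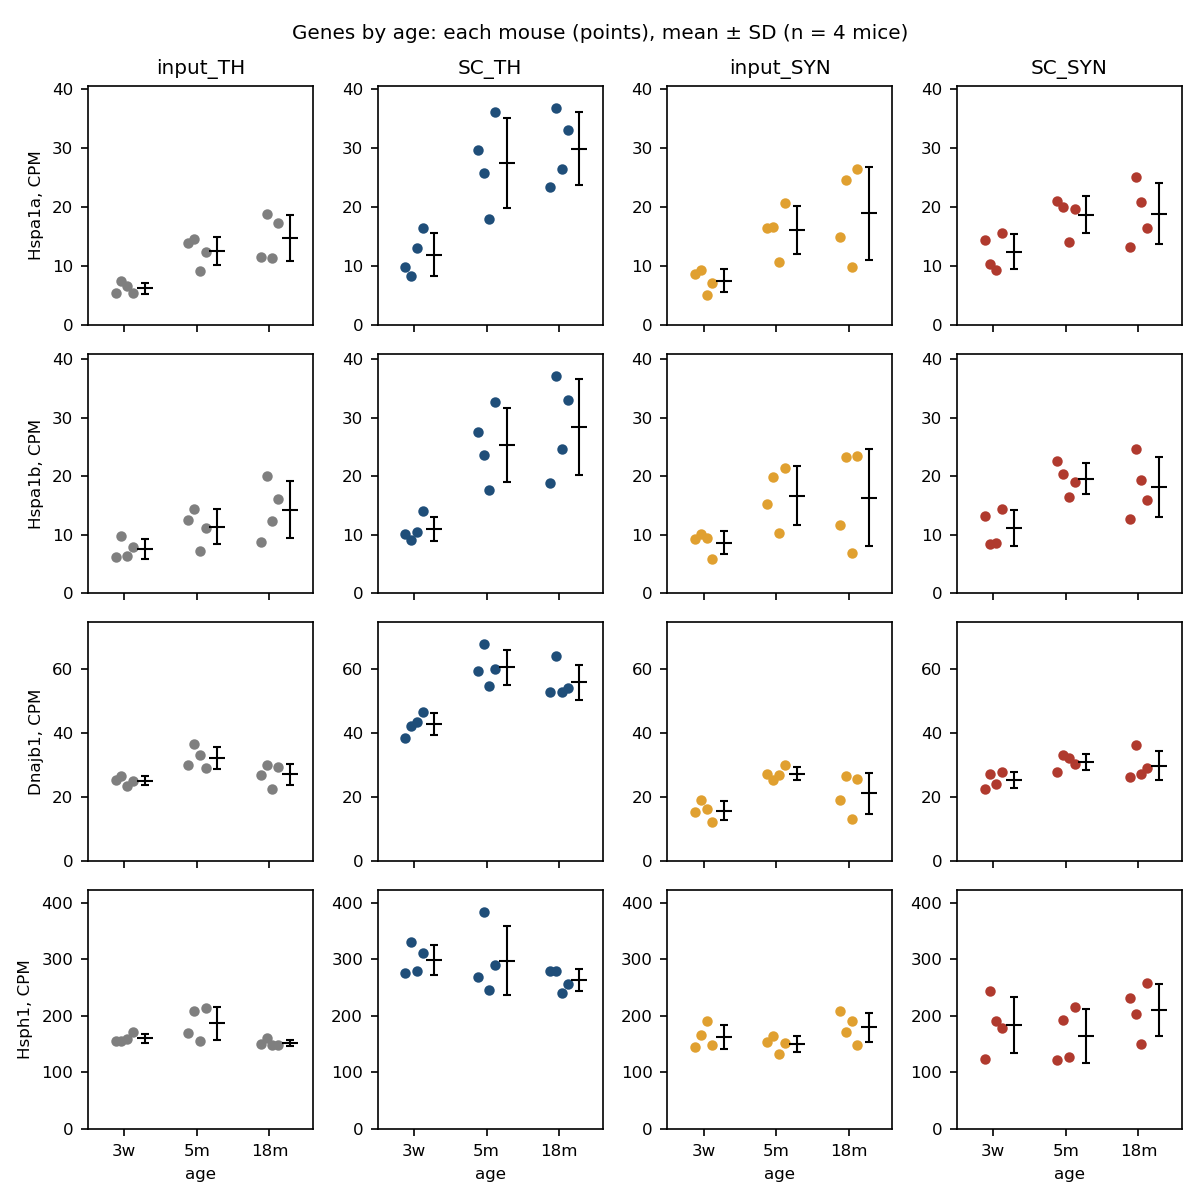
CPM of Hspa1a, Hspa1b, Dnajb1 and Hsph1 (rows) by age in the 4 fractions (columns), with 1 point per mouse and the mean ± SD of 4 mice beside them. In TH pellets (SC_TH) Hspa1a, Hspa1b and Dnajb1 at 5 months lie above every mouse of 3 weeks, and the 18-month points overlap those of 5 months.

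Between 5 and 18 months few of the 10 genes were called in any fraction. The 18-month comparisons use the same 5-month libraries as the 3-week ones. In TH input Hsph1 was at 169, 209, 156 and 214 CPM at 5 months and at 150, 160, 148 and 149 at 18 months, with mouse 193 inside the older range. It fell by 0.298 (SE 0.083, adjusted p = 0.0235) and was the 1 called gene of 10, against 15.5% of all genes. The call was lost without mouse 192 (-0.24, adjusted p = 0.0847), 194 (-0.22, 0.0925), 197 (-0.29, 0.0527) or 198 (-0.29, 0.0659), with the GC and length trend removed (-0.24, 0.131) and with all 48 libraries in one fit (-0.30, 0.342). Without mouse 191 the count was 3, with Hsp90aa1 (-0.27, adjusted p = 0.0137) and Dnajb1 (-0.28, 0.0415) also lower, and without mouse 195 it was 2 (Hsp90aa1 -0.26, 0.0275). With library size, 32.6% of all called genes were higher, against 52.7% with TMM.

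In the other 3 fractions edgeR called none of the genes between 5 and 18 months. In TH pellets (2.17% of all genes called) 1 gene, Hspd1 (-0.32, SE 0.138), was under an unadjusted p of 0.05 and DESeq2 called 0. In SYN input (0.139%) 2 genes were, Hspa8 (0.30, SE 0.104) and Hsp90ab1 (0.23, SE 0.096), again with 0 by DESeq2. In SYN pellets (0.014%) 0 were by either tool. In TH pellets at 18 months Hspa1a was at 23.4, 36.8, 26.4 and 33.0 CPM, Hspa1b at 18.9, 37.2, 24.7 and 33.0, and Dnajb1 at 52.8, 64.2, 53.0 and 54.1. All of these lay above every mouse of 3 weeks and overlapped the mice of 5 months.

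Other transcripts moved over the same steps. The summed immediate early genes, which neurons switch on with activity, were at 497 to 1050 CPM in TH pellets at 3 weeks, 1150 to 1310 at 5 months and 447 to 895 at 18 months. Of 11 such genes 5 were called higher in TH pellets at 5 months and 6 lower at 18 months. In TH input, SYN input and SYN pellets 1 each was higher at 5 months. At 18 months 6 were lower in TH input, 1 in SYN input and 0 in SYN pellets. Hspa1a, Hspa1b and Dnajb1 differed by 0.13 (SE 0.19), 0.17 (SE 0.192) and -0.10 (SE 0.088) in TH pellets at 18 months, with no call. The oligodendrocyte markers were lower at 5 months, 7 of 8 in TH pellets, 8 of 8 in TH input and 7 of 8 in each SYN fraction. Microglia markers were higher in SYN, 4 of 8 in input and 5 of 8 in pellets. In TH pellets 4 of 10 endothelial markers, 4 of 5 erythrocyte markers and 4 of 6 nuclear RNAs were lower too, and 3 of 8 microglia markers were higher. The part of each in the chaperone values was not tested.

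Among 113 further chaperone and stress genes in 9 lists, 19 were higher and 6 lower of 109 tested at 5 months in TH pellets, where 17.9% of all genes were called, and 12 higher and 5 lower of 109 in TH input, where 11.8% were. Hsf4, a heat shock factor best known from the lens, rose by 1.88 (SE 0.146, adjusted p = 7.24e-07) in TH pellets and by 1.67 (SE 0.201) in TH input. Herpud1, an ER stress gene that takes part in ER-associated degradation, rose by 0.92 (SE 0.151) in TH pellets. Fkbp5, an HSP90 cochaperone induced by glucocorticoids, rose by 0.76 (SE 0.095) in TH input, and Chac1, another unfolded protein response target, rose by 0.575 (SE 0.144) there and 0.90 (SE 0.225) in TH pellets.

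In TH pellets at 5 months, with 17.9% of all genes called, the BAG and nucleotide exchange list, partners that release HSP70 clients, had 4 of 10 higher and 0 lower. There the HSP90 cochaperone list had 4 of 18 and 0, the ER folding list 5 and 1 of 20, and the DNAJ list 0 and 2 of 21. In SYN pellets 6 were higher and 1 lower of 106 (8.05% of all genes called), with Hsf4 (1.37, SE 0.235) and Herpud1 (0.69, SE 0.195) among them. In SYN input, with 3.22% of all genes called, 1 of 103 was higher, Tomm34, a cochaperone of mitochondrial import (0.675, SE 0.169), and 3 were lower, among them Dnajc27 (-0.49, SE 0.092) and the ER J-domain protein Dnajb11 (-0.46, SE 0.117). Between 5 and 18 months, Cryab, the alpha-B crystallin of glia, rose by 0.33 (SE 0.088) in TH input and 0.54 (SE 0.128) in TH pellets. In these pellets, with 2.17% of all genes called, it was the 1 gene higher and Dnajb5 (-0.50, SE 0.101) the 1 lower. In TH input 9 were higher and 10 lower of 109 (15.5% of all genes called), including the cochaperone Chordc1 (-0.37, SE 0.101) and Hsf2 (-0.37, SE 0.091). In both SYN fractions 0 of these genes were called at 18 months by edgeR, against 0.139% of all genes in input and 0.014% in pellets.

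The next question was how the transcripts differ between synaptosomes and homogenate of the same mice. Hspa5 was several times higher in SYN at every age, Hspb1 and Dnajb1 were lower in SYN pellets at every age, and the cytosolic HSP70 and HSP90 genes depended on the fraction and on the scaling. The 2 compartments differ so widely that the choice of scaling matters: on library size alone the median of all genes shifted by -0.53 to -0.654 on the log2 scale relative to TMM. The share of called genes that were higher in SYN was between 44.6% and 49% with TMM and between 20.5% and 25.4% with library size. DESeq2's size factors shifted the median by -0.106 at most. Directions below hold under all 3 scalings unless a sentence says otherwise.

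Hspa5 was at 256, 378, 208 and 293 CPM in the TH pellets of the 4 mice of 5 months and at 983, 1031, 651 and 1225 in their SYN pellets. No TH library reached the lowest SYN library. The difference was 1.81 (SE 0.243, adjusted p = 4.67e-07), a 3.5-fold excess, with 1.94 (SE 0.245) at 3 weeks and 1.88 (SE 0.244) at 18 months. In input the same mice had 146, 145, 107 and 148 CPM in TH and 757, 758, 523 and 688 in SYN, a difference of 2.33 (SE 0.143, adjusted p = 2.46e-14), with 2.36 at 3 weeks and 2.36 at 18 months. SYN exceeded TH in 12 of 12 mice, by 2.55 to 5.11 times in pellets and 3.88 to 6.47 times in input. On library size alone the differences were 1.22 to 1.39 in pellets and 1.68 to 1.79 in input.

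Other ER folding genes were higher with Hspa5. Of 20 tested, 18 were higher and 2 lower in SYN pellets at 3 weeks, 17 and 2 at 5 months and 17 and 2 at 18 months, with medians of 1.40, 1.31 and 0.995, where 63.5%, 67.8% and 62.1% of all genes were called in either direction and the medians over all genes were -0.0423, -0.0907 and -0.0701. In SYN input the counts were 16 and 1, 17 and 1, and 17 and 1, against 71%, 72.7% and 72.3% of all genes called. On library size 15, 13 and 12 were higher in pellets, and 14, 13 and 14 in input. Examples are Calr (1.68, SE 0.169) and Pdia6 (1.70, SE 0.169) in pellets at 3 weeks, a lectin chaperone and a disulfide isomerase, and the lectin chaperone Canx in input at 5 months (2.54, SE 0.132). The BiP partners Hyou1 (1.795, SE 0.135 at 3 weeks and 1.85, SE 0.134 at 5 months), Sil1 (1.70, SE 0.122 at 5 months) and Dnajb11 (2.63, SE 0.11 in input at 3 weeks) and the ER paralog Hsp90b1 (1.83, SE 0.251 at 18 months) belong to other lists and were higher too. The astrocyte markers were higher in 8 of 8 at each age in both fractions. With TMM, 7, 8 and 8 of 8 microglia markers were higher too, in each fraction, by age. Of 8 oligodendrocyte markers, 7, 6 and 5 were higher and 1 lower each time in pellets. In input 4, 4 and 5 were higher and 0, 1 and 3 lower. The part of these cell types was not tested.

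Dnajb1 was lower in SYN pellets in 12 of 12 mice, at 0.467 to 0.647 of the TH value. At 5 months the SYN pellets had 27.8, 33.3, 32.4 and 30.3 CPM against 59.6, 68.0, 54.9 and 60.2 in TH, with no overlap. The differences were -0.70 (SE 0.112), -0.95 (SE 0.105) and -0.87 (SE 0.105) at the 3 ages, the last with an adjusted p of 1.31e-07. In input Dnajb1 was called by edgeR with TMM at 3 weeks (-0.63, SE 0.161, adjusted p = 0.00112), with -0.23 (adjusted p = 0.157) at 5 months and -0.30 (adjusted p = 0.0516) at 18 months. At both of these ages it was called lower by DESeq2 (-0.33, adjusted p = 0.0269, and -0.40, 0.00464), on library size (-0.88, 7.46e-07, and -0.88, 4.06e-07) and with at least 10 counts in every library (-0.54, 0.000993, and -0.59, 0.000232). The 18-month difference was also called with the mouse as a block (-0.36, 0.0129), with the block and the GC and length trend removed (-0.25, 0.0474), with no filter (-0.33, 0.029), with all 48 libraries in one fit (-0.31, 0.0306) and without mouse 196 (-0.36, 0.0409) or 198 (-0.36, 0.048).

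Hspb1 had almost no reads in SYN. At 5 months it was at 4.08, 3.16, 4.51 and 4.30 CPM in TH pellets and at 0.901, 0.709, 1.23 and 1.05 in SYN pellets, and at 3 weeks 2 of the 4 SYN input libraries were at 0. SYN was lower in 12 of 12 mice in both fractions. The differences were -1.86 (SE 0.377), -2.02 (SE 0.282) and -1.95 (SE 0.268) in pellets and -3.11 (SE 0.752), -3.10 (SE 0.575) and -2.54 (SE 0.47) in input, in order of age. Endothelial and vascular markers were lower with it, for 8, 9 and 8 of 10 genes in pellets (medians -2.45, -2.87 and -1.97), with 1 higher each time. In input 8, 9 and 9 of 10 of these markers were lower and 0 higher. Of all genes, 63.5%, 67.8% and 62.1% were called in pellets and 71%, 72.7% and 72.3% in input. Hspa12b, an HSP70 relative known from endothelium, was also lower in input (-3.41, -3.39 and -3.28). Their part in the Hspb1 difference was not tested.

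Hsph1 was lower in SYN pellets in 11 of 12 mice. At 5 months SYN pellets had 122, 192, 127 and 217 CPM and TH pellets 269, 384, 245 and 290, with no overlap. It was called at 3 weeks (-0.66, SE 0.187) and 5 months (-0.83, SE 0.186) and not at 18 months (-0.29, adjusted p = 0.178), where it was called with the mouse as a block (-0.32, adjusted p = 0.046), with the block and the GC and length trend removed (-0.29, 0.0315) and on library size (-0.815, 0.000465). In input it was lower at 5 months (-0.31, SE 0.107, adjusted p = 0.0122; -0.24 and 0.0869 without mouse 194, -0.315 and 0.0802 with all 48 libraries in one fit) and higher at 18 months (0.24, SE 0.105, adjusted p = 0.0396). The 18-month value turned to -0.32 on library size (adjusted p = 0.00851) and was -0.05 with at least 10 counts in every library. Its call was lost by DESeq2 (0.15, 0.242), with no filter (0.21, 0.0864), with all 48 libraries in one fit (0.24, 0.181) and without mouse 195 (0.16, 0.251) or 197 (0.20, 0.136). With the block and the trend with GC content and length removed, the 5-month value was -0.03 (adjusted p = 0.796), and the 3-week one 0.29 (0.0068), against 0.02 (0.896) in the main test and -0.55 on library size.

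In input and on the TMM scale, Hspa8, Hsp90ab1 and Hspd1 were higher in SYN in 12 of 12 mice. These counts of mice were not made on library size. At 18 months Hspa8 had 487, 519, 429 and 518 CPM in TH input and 1051, 1077, 1047 and 992 in SYN input. These values did not overlap, and on library size the difference at this age was 0.53, against 1.097 with TMM. The differences were 1.04 (SE 0.104), 0.71 (SE 0.103) and 1.097 (SE 0.103) for Hspa8, 0.95 (SE 0.137), 0.76 (SE 0.135) and 0.94 (SE 0.131) for Hspd1, and 0.66 (SE 0.073), 0.41 (SE 0.072) and 0.60 (SE 0.072) for Hsp90ab1, by age. On library size the calls of Hspa8 and Hspd1 held at 3 weeks and 18 months and not at 5 months (0.06 and 0.11), while Hsp90ab1 was 0.09, -0.24 and 0.03. Hsp90aa1 was called at 3 weeks (0.35, SE 0.133, adjusted p = 0.022) and 18 months (0.51, SE 0.131, adjusted p = 0.00113), and was -0.22 and -0.06 on library size. Its 3-week call was lost by DESeq2 (0.28, adjusted p = 0.0879), with all 48 libraries in one fit (0.34, 0.1), with at least 10 counts in every library (0.064, 0.674) and without mouse 188 (0.28, 0.13) or 189 (0.25, 0.143). The 18-month value was 0.21 (0.149) with at least 10 counts in every library. At 5 months it was 0.004 (adjusted p = 0.979), -0.65 on library size (0.000135), -0.31 (0.042) with at least 10 counts in every library, and 0.63 (3.53e-07) with the block and the GC and length trend removed.

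In pellets edgeR with TMM called none of the same 4 genes at any age. Hspa8 differed by 0.11, -0.36 and -0.04, Hsp90ab1 by -0.04, -0.16 and 0.17, Hspd1 by 0.09, -0.05 and 0.37, and Hsp90aa1 by -0.14, -0.46 and 0.04. All of these were negative on library size, Hspa8 and Hspd1 at 3 weeks with -0.44 and -0.46, and Hsp90aa1 and Hsp90ab1 at 18 months with -0.48 and -0.36, and on library size all 4 were called lower at 5 months (Hspa8 -0.94, Hsp90aa1 -1.05, Hsp90ab1 -0.74 and Hspd1 -0.64). Hsp90aa1 was called lower at 5 months by DESeq2 (-0.49, adjusted p = 0.0385). Hspa8 and Hsp90aa1 were both called lower at 5 months with no filter (-0.41, 0.0155 and -0.52, 0.00754), with at least 10 counts in every library (-0.47, 0.0156 and -0.58, 0.0156) and when all 48 libraries were modelled together (-0.38, 0.0217 and -0.49, 0.0168). With the mouse as a block Hspa8 (-0.40, adjusted p = 0.0143) and Hsp90aa1 (-0.49, adjusted p = 0.0253) were called lower at 5 months, as they were without mouse 194 (-0.49, 0.029 and -0.65, 0.0203). Hspd1 was called higher at 18 months without mouse 196 (0.56, adjusted p = 0.0376).

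The inducible pair was called lower in SYN than in TH pellets at 18 months, as was Hspa1a at 5 months. No change of this difference with age was called, as given below. At 18 months Hspa1a was at 13.2, 25.2, 20.8 and 16.4 CPM in SYN pellets against 23.4, 36.8, 26.4 and 33.0 in the TH pellets of the same mice. Each mouse was lower in SYN, although the groups overlapped. The differences at 18 months were -0.61 (SE 0.216, adjusted p = 0.0178) for Hspa1a and -0.59 (SE 0.217, adjusted p = 0.0211) for Hspa1b, and both were lost without mouse 198 (-0.50, 0.0867 and -0.46, 0.115). At 5 months Hspa1a was called (-0.53, SE 0.219, adjusted p = 0.0347), but not without mouse 191 (-0.54, 0.0722) or 194 (-0.37, 0.197) or with both genes summed (-0.44, 0.0747), and Hspa1b was not (-0.36, adjusted p = 0.151). Hspa1b was called at 5 months on library size (-0.94, 0.000391) and with the block and the GC and length trend removed (-0.72, 1.58e-05). At 3 weeks they differed by 0.13 and 0.10, and by -0.41 and -0.45 on library size.

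In SYN input the pair passed no test, with differences of 0.37, 0.39 and 0.45 for Hspa1a and 0.27, 0.58 and 0.30 for Hspa1b. All of these were negative on library size. With the mouse as a block the 5-month values (0.37, adjusted p = 0.0486 for Hspa1a and 0.56, 0.0115 for Hspa1b) and the 18-month value of Hspa1a (0.36, 0.0354) were called higher. With no filter the 5-month value of Hspa1b (0.52, adjusted p = 0.0199) and the 18-month value of Hspa1a (0.42, 0.0219) were called, as was the latter without mouse 197 (0.50, 0.0326) and with the block and the GC and length trend removed (0.39, 0.00762).

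In all, 4, 5 and 5 of the 10 genes were called between SYN and TH pellets, in order of age, 1 higher each time. The background was 63.5%, 67.8% and 62.1% of all genes, and the medians over the 10 genes were 0.028, -0.41 and -0.166, against -0.0423, -0.0907 and -0.0701 over all genes. Without mouse 198 the 18-month count was 3. In input 7, 6 and 7 were called, with 5, 4 and 6 higher, against 71%, 72.7% and 72.3% of all genes. The medians over the 10 genes in input were 0.356, 0.401 and 0.477, against -0.179, -0.176 and -0.12. As shares of 10, none of the 6 counts exceeded its background with TMM. On library size the pellet counts were 8, 10 and 9 of 10, by age. There 12141, 12793 and 11989 of 16630 genes were called, so each count lay above its background. In input on library size 3, 1 and 3 of the 10 genes were called higher and 3, 5 and 3 lower, by age. Of 17860 genes, 14293, 14571 and 14545 were called there, and 24.6%, 23.8% and 23.8% of those were higher.

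**Figure D3:**
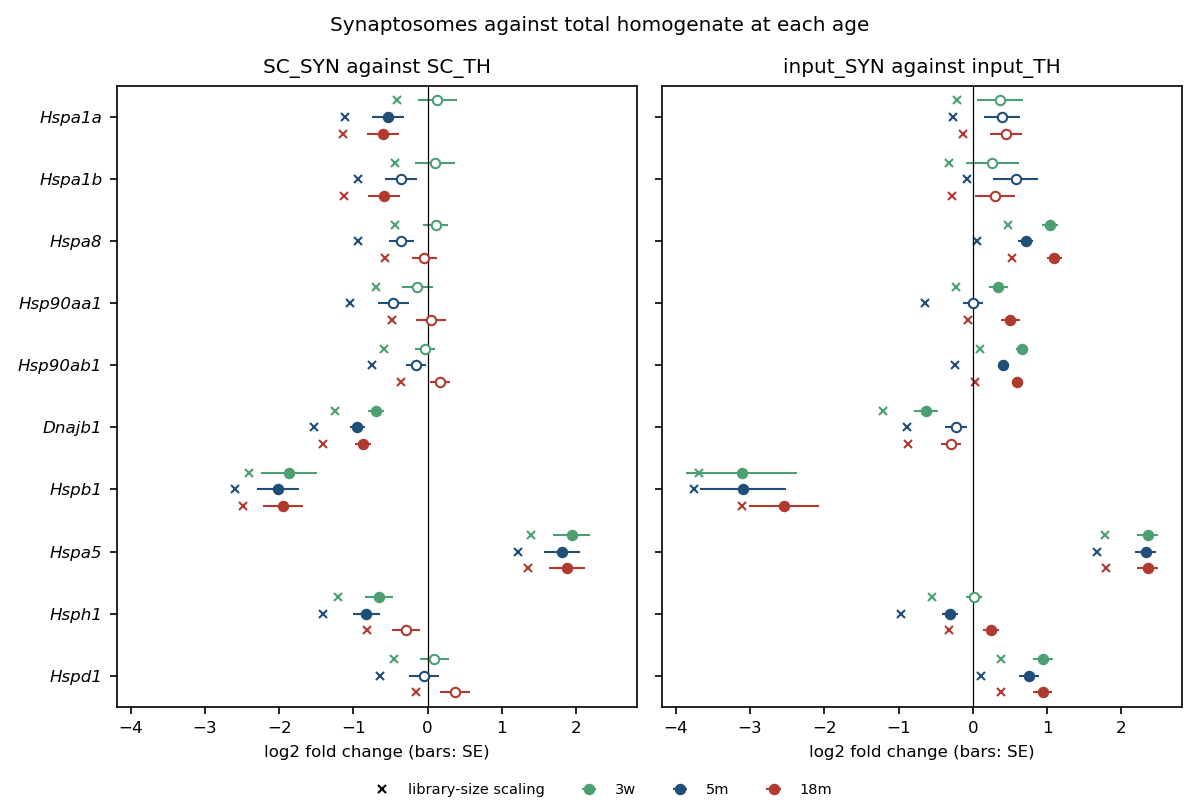
Log2 difference between SYN and TH (SYN minus TH) for each gene and age, in pellets and in input, with bars of 1 standard error; filled points were called, open ones were not, and crosses give the value on library size alone. Hspa5 lies to the positive side under both scalings and Hspb1 to the negative side.

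Whether the age changes differed between SYN and TH was tested as an interaction. Between pellets 0 of the 10 genes had a different change, at 5 months against 3 weeks (0.0301% of all genes called) or at 18 against 5 months (0%), with 0 at an unadjusted p under 0.05 and 0 by DESeq2 in both. The largest value of the first was that of Hspa1a, with a SYN change minus TH change of -0.66 (SE 0.339, adjusted p = 0.647). Between inputs 0 were called for 5 months against 3 weeks (0.0224%), with 3 at an unadjusted p under 0.05 (Hspa8, Hsp90ab1 and Hsph1) and 0 by DESeq2.

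Between inputs at 18 against 5 months 1 was called, Hsph1, against 2.42% of all genes. The SYN change minus the TH change was 0.55 (SE 0.15, adjusted p = 0.0457), from 154, 165, 132 and 151 to 209, 171, 191 and 149 CPM in SYN input while TH input fell. The call was lost without mouse 191 (0.61, adjusted p = 0.0525), 192 (0.54, 0.113), 193 (0.58, 0.0615), 194 (0.48, 0.149), 195 (0.46, 0.139), 196 (0.62, 0.0546) or 197 (0.51, 0.0969), and was 0.39 (0.253) with the block and the GC and length trend removed and 0.55 (0.234) when all 48 libraries were modelled together. With the mouse as a block Hspa8 (0.39, 0.039) and Hsp90aa1 (0.47, 0.0497) were called too, as was Hsp90aa1 with no filter (0.52, 0.0268). Of the further chaperone genes, Hspa4l, an HSP110 relative (0.57, SE 0.133), and the J-domain genes Dnaja2 (0.57, SE 0.142) and Dnajc13 (0.47, SE 0.129) had the largest differences of this kind among those with at least 50 counts. The higher share of called genes was 41.7% with TMM and 67.9% with library size.

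The last question was which transcripts were more abundant in the cushion pellet than in the input it came from. These comparisons use the same 48 libraries as those between compartments. In TH all 10 genes were called over the 3 ages, 9 higher in the pellet and Hspb1 lower, against 75.8% of all genes called. The median over the 10 genes was 0.958, against -0.0418 over all genes tested. All 10 calls were kept in every alternative that gave a value.

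Hspa8 led, with 1428, 1747, 1123 and 1432 CPM in the TH pellets of 5 months against 468, 574, 434 and 605 in TH input. The pellets lay above the input in 12 of 12 mice, by 2.37 to 3.22 times, and the difference was 1.52 (SE 0.061, adjusted p = 3.43e-18). Hsp90ab1 followed with 1.11 (SE 0.04), Hspa5 with 1.105 (SE 0.088), Hspa1a with 1.04 (SE 0.124), Hspd1 with 0.97 (SE 0.069), Hsp90aa1 with 0.94 (SE 0.055), Dnajb1 with 0.91 (SE 0.054), Hspa1b with 0.91 (SE 0.143) and Hsph1 with 0.795 (SE 0.06). Each was higher in 12 of 12 mice apart from Hspa1b, with 11.

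Hspb1 was lower in the TH pellet in 12 of 12 mice, at 0.233 to 0.922 of the input, a difference of -0.76 (SE 0.188, adjusted p = 0.000663). The endothelial and vascular markers were lower there for 10 of 10 genes (median -0.79) and nuclear RNAs for 6 of 6, while the neuron, astrocyte and microglia lists were higher for 8 of 8 each. Their part was not tested. Of 110 further chaperone genes tested, 82 were higher and 16 lower in the TH pellet, against the same 75.8% of all genes. Every list had more genes higher than lower, with 9 against 1 of 10 in the HSP70 and HSP110 list and 14 against 5 of 21 in the ER folding list. Hspe1, the partner of HSP60 (1.76, SE 0.101), Pfdn6, a prefoldin subunit (1.64, SE 0.077), and Dnajb6 (1.30, SE 0.081) had the largest values among those with at least 50 counts.

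In SYN 5 of 9 tested genes were higher in the pellet and 0 lower, against 43.2% of all genes called. They were Hspa5 (0.58, SE 0.131), Hsp90ab1 (0.48, SE 0.083), Dnajb1 (0.42, SE 0.09), Hspa8 (0.42, SE 0.098) and Hsp90aa1 (0.41, SE 0.136, adjusted p = 0.0179). Hsp90ab1 was higher in 12 of 12 mice, by 1.12 to 1.99 times, and Dnajb1 in 12 of 12, by 1.01 to 2.28 times. Hsp90aa1 was not called without mouse 194 (0.36, adjusted p = 0.0537) or 198 (0.30, 0.0758). Hspa1a (0.27), Hspa1b (0.21), Hsph1 (0.16) and Hspd1 (0.17) passed no test. The median was 0.408, against 0.0105 over all genes. Of 106 further chaperone genes 46 were higher and 9 lower, against the same 43.2%, with Hspb8 (0.80, SE 0.108) and the HSP90 cochaperone Fkbp4 (0.78, SE 0.115) among the higher and the prefoldin subunit Pfdn2 (-0.74, SE 0.089) among the lower.

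**Figure D4:**
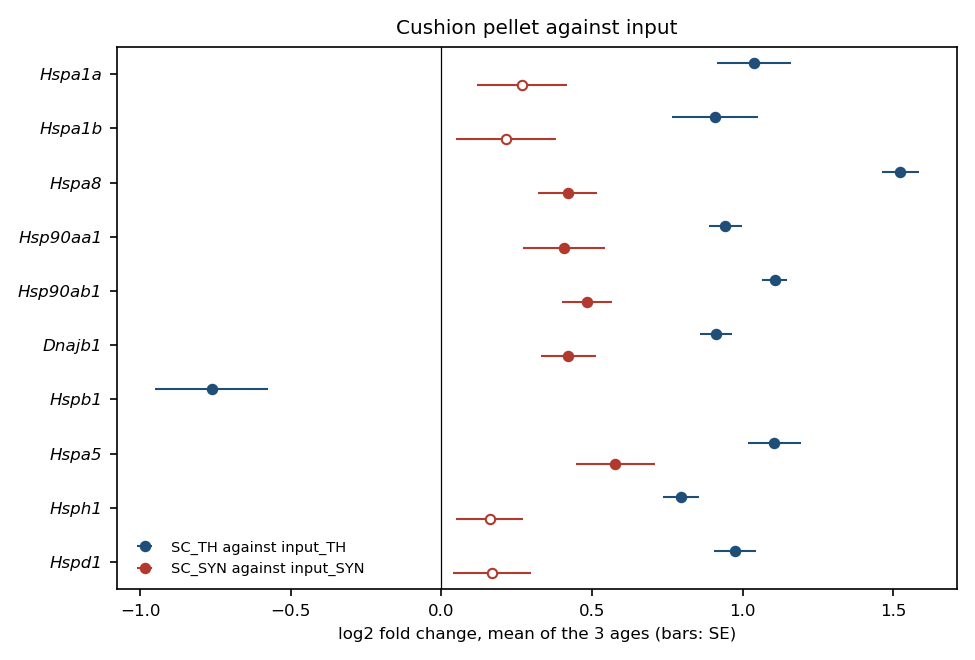
Log2 difference between pellet and input (pellet minus input, over the 3 ages) for each gene in TH and SYN, with bars of 1 standard error; filled points were called. In TH all genes but Hspb1 lie to the positive side, between 0.795 and 1.52, and in SYN the values lie between 0.16 and 0.58.

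No change with age of the difference between pellet and input was called by edgeR. In TH 0 were called at 5 months against 3 weeks (2.33% of all genes), with 1 at an unadjusted p under 0.05, Hspd1 (-0.39, adjusted p = 0.175), and 0 by DESeq2. Without mouse 192 Hspd1 was called (-0.51, adjusted p = 0.042). At 18 against 5 months in TH 0 were called (1.78%), 0 were unadjusted and 0 by DESeq2. In SYN 0 were called at 5 months against 3 weeks (0%), with Dnajb1 alone at an unadjusted p under 0.05 (-0.50, adjusted p = 1), and 0 at 18 against 5 months (0%), where 0 were unadjusted. DESeq2 called 0 in both. The share of higher genes among those called in TH was 43.1% and 34.1% for these steps, 22.8% and 52.9% with library size, and 63.8% and 28.9% with DESeq2.

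Across the 48 libraries, with the mean of each fraction subtracted, some of the genes varied together. These correlations are descriptions over libraries that share mice and depth. Differences between the ages were not subtracted, so they are part of these values. Hsp90aa1, Hsp90ab1 and Hsph1 varied together (r = 0.895, 0.861 and 0.857 for the 3 pairs), and Hspa1a and Hspa1b (r = 0.926, in part shared reads) varied with Dnajb1 (r = 0.715 and 0.745). The pair had little relation to Hspa5 (r = 0.046 and 0.092) and a negative one to Hspd1 (r = -0.427 and -0.498).

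Likeness was taken over 9138 genes, those with a mean of at least 10 CPM and the 10 genes at any level, without Gm and Rik names. The 10 genes were not ranked against each other, so pairs such as Hspa1a and Hspa1b (r = 0.926) are left out of what follows. Outside the 10 genes, the transcripts most like Hspa5 were Pdia6 (r = 0.914), Calr (0.897) and Pdia4 (0.844), 3 ER folding genes. With the 10 genes left out in the same way, most like Hspa1b was Xbp1 (0.865), the transcription factor of the unfolded protein response. Most like Hspa1a was then Flywch1 (0.877). Hsp90ab1 was most like Khdrbs3 (0.883) and Hnrnpc (0.87), with the HSP70 and HSP90 cochaperone St13 next (0.869), Hsp90aa1 most like the RNA helicase Ddx5 (0.91), and Hsph1 most like the nuclear import receptor Ipo7 (0.879). Hspa8 was most like the actin-nucleating subunit Arpc2 (0.79), and Hspb1 most like the cyclin Ccnd3 (0.76). Hspd1 was most like its own pseudogene Hspd1-ps3 (0.934), with which it shares sequence, and then Cbx1 (0.904).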

How the data were processed

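RNA was sequenced from 48 libraries of 12 mice (4 per age and fraction). The authors deposited 1 table of raw read counts per gene, unnormalised. Per the labels and the study's methods, rRNA-depleted directional libraries were read for 101 single-end cycles, converted with bcl2fastq 2.20.0.422, mapped to GRCm38 with TopHat2 2.1 and counted by featureCounts without strand. Use of the molecular identifiers is not given in the sources used here. Of 48526 genes, 48144 had a GENCODE symbol, and the rest held 0.0596% of counts. Genes were filtered with filterByExpr, scaled by TMM and tested with edgeR 4.0.16 (limma 3.58.1, R 4.3.3) by quasi-likelihood, in 8 models of 24 comparisons. Each age comparison used the libraries of 1 fraction, and each compartment or cushion comparison the libraries of 2. P-values were adjusted over all genes tested, and calls were made under 0.05. DESeq2 1.42.0 and the other alternatives are given in the closing section, and the script was tested on simulated counts.

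The same mouse gave all 4 libraries, so libraries pair by mouse. Deviations of same-mouse libraries from their group means correlated with medians of -0.058 to 0.233 between fractions (range -0.685 to 0.713). The model without a mouse block was the main one, and the blocked value is printed where it changes a call. The 10 genes, the chaperone lists and the marker lists were chosen with earlier results of these data known. All 10 genes are named throughout. Of the other chaperone genes, up to 3 per comparison were named, those called with the largest change, if the higher group averaged 50 counts or more. The log2 CPM behind the correlations carried a prior count of 2. Some correlation results are not reported here. The replicates are separate mice. The sequencing run of each library was not given in the sources used here, so a run effect was not tested. Counts limit Hspb1 most, with 0 to 21 per SYN library.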

Additional observations from a re-analysis of the deposited data

Results flagged for a closer look

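Single libraries stood apart from the other 3 of their group in 6 of the 120 groups of gene, fraction and age that were examined, by a gap to the nearest of them, over the whole range, above Dixon's critical value. Chance alone marks about 1 in 20 groups.

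In TH input at 3 weeks, Hspa8 stood at 542 CPM in mouse 190, against 479 to 488 in the others. In TH input at 5 months, Hspb1 stood at 17.5 CPM in mouse 191 (231 reads), against 5.01 to 6.08, and Hspa5 at 107 in mouse 193, against 145 to 148. In TH pellets at 5 months, Hsp90ab1 stood at 1680 in mouse 192, against 1320 to 1370. At 18 months, mouse 196 had 64.2 for Dnajb1 in TH pellets, against 52.8 to 54.1, and 160 for Hsph1 in TH input, against 148 to 150.

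The change of Hsph1 between 5 and 18 months differed between SYN and TH input by 0.551 on the log2 scale (SE 0.15, edgeR adjusted p = 0.0457), a difference tested as an interaction. It was called in 8 of 17 alternatives, and the others gave adjusted p-values of up to 0.253.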

How the results depend on the processing

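Each value was recomputed under those of 12 other settings that apply to it, and with each mouse of the ages compared left out in turn. The replicate block applies only between libraries of the same mice. Of the values called in the main test, 845 kept call and direction, 66 lost the call and 5 turned; of those not called, 2738 stayed so, 76 were called and 8 turned to the other side with a call. The causes were not tested. These 13 turned values, in which the main test or the alternative made a call, are all SYN against TH. Other values changed sign with no call on either side. On library size the turned values with a call were, in pellets, Hspa8 -0.44 and Hspd1 -0.457 at 3 weeks and Hsp90aa1 -0.481 and Hsp90ab1 -0.36 at 18 months. In input they were Hsp90aa1 -0.221, -0.647 and -0.059 by age, Hsph1 -0.552 at 3 weeks and -0.324 at 18 months, and Hsp90ab1 -0.242 at 5 months. With at least 10 counts in every library the turned values, all in input, were Hsph1 -0.267 at 3 weeks and -0.05 at 18 months, and Hsp90aa1 -0.306 at 5 months.

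The number of chaperone genes called moved as follows. On library size it was 5 (TH input, 5 months against 3 weeks), 3 (TH input, 18 against 5 months), 0 (SYN pellets, 5 months against 3 weeks), and 8, 10 and 9 (SYN against TH pellets, by age). With no filter it was 5 (TH input) and 3 (SYN input) for 5 months against 3 weeks, and 2 for the SYN against TH input change at 18 months. DESeq2 gave 2 for TH input at 18 against 5 months and 2 for SYN input at 5 months. With the GC content and length trend removed the counts were 0 (TH input, 18 against 5 months), 2 (SYN input, 5 months) and 0 (SYN pellets, 5 months). With only the 2 ages it was 3 for SYN input at 5 months. Summing Hspa1a and Hspa1b gave 0 for SYN pellets at 5 months. All 48 libraries in one model gave 0 for TH input at 18 months, 2 for SYN pellets at 5 months and 0 for the input change at 18 months. With the replicate block that change had 3, and 0 with the block and the GC trend removed. The block changed 18 values across its 2 forms and changed no other call. The calls over all genes moved with the settings too. At 5 months they ran from 761 to 2383 in TH input (2136 in the main test), 404 to 895 in SYN input (418) and 1021 to 3464 in SYN pellets (1146). At 18 months in TH input they ran from 183 to 3059 (2808). Between SYN and TH pellets they ran from 8272 to 12141, 8701 to 12793 and 8138 to 11989, by age. The input change at 18 months ran from 36 to 1055 (432).

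Leaving out 1 mouse gave 1 to 6 (TH input, 5 months against 3 weeks), 0 to 3 (TH input, 18 against 5 months), 0 to 1 (SYN input and SYN pellets, 5 months), 3 to 6 (SYN against TH pellets, 18 months), 0 to 1 (input change, 18 months) and 0 to 1 (TH pellet against input change, 5 months). The calls over all genes moved as well, in the same order. They ran from 1501 to 2228, 1404 to 3389, 224 to 299 (SYN input), 558 to 1264 (SYN pellets), 8986 to 9597, 73 to 381 and 1 to 1350.

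Over all genes, the calls of the 18-month SYN pellets (2 in the main test) ran from 1 to 1457 under other settings and from 0 to 2 with 1 mouse left out. Those of the TH pellet against input change at 5 months (429) ran from 0 to 1303 and from 1 to 1350. Depth limits Hspb1 in SYN.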
